A study of Caenorhabditis elegans with 2 samples.

Results

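The srh genes of Caenorhabditis elegans were examined for promoter peaks of ELT-2, a GATA transcription factor that governs intestinal genes. All protein-coding genes with a WBcel235 symbol that starts with srh- were taken, which gave 220 of the 19973 nuclear coding genes under 218 symbols, because srh-57 and srh-228 each name a pair of gene copies. The family was chosen by its low share of bound promoters in an earlier reading of the same peak lists, so that share is a description and no test was run on it. A gene was called bound when the summit of a peak lay from 1000 bp upstream to 500 bp downstream of any of its transcript starts.

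The peaks came from chromatin immunoprecipitation and sequencing (ChIP-seq) of whole L3 larval hermaphrodites, collected 40 hours after synchronization as starved L1 larvae that followed bleaching. The strain was OP56, with genotype unc-119(ed3) III; wgIs56, in which an integrated transgene expresses ELT-2 joined to GFP and FLAG at its C-terminus, and the immunoprecipitation is described as done with an antibody to GFP, although the antibody label itself names ELT-2. Biological replicates 1 and 2 formed the single group, so no conditions could be compared, and the peaks of a whole animal cannot be assigned to a tissue. Peak signal is the authors' own value for each peak, and each list has its own scale. The main list held the 9198 peaks that passed the irreproducible discovery rate (IDR) filter, 9181 of them on nuclear chromosomes, with signals from 74.97 to 9719 and a median of 204. The depth of the libraries is unknown, since only peaks are listed. All positions are 1-based on ce11.

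Srh proteins are predicted G protein-coupled receptors with the seven-transmembrane fold, one of several large nematode families of candidate chemoreceptors. Chemoreceptors of worms are made mainly in ciliated sensory neurons of the head and tail, where they sit in the cilia and signal through G proteins to cyclic nucleotide-gated or TRP-type channels. Many of their genes stand in tandem arrays on the arms of chromosome V. ELT-2 binds the sequence TGATAA, read on either strand, at genes of digestion, transport and defence in the gut.

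Of the 220 srh genes, 11 were bound (5.00%, 95% exact interval 2.52% to 8.77%), while 26.7% of all nuclear coding genes were. The bound genes were srh-70, srh-2, srh-282, srh-166, srh-237, srh-239, srh-269, srh-16, srh-35, srh-89 and srh-83. Their windows held 14 peaks. In 8 of the 14 peaks the nearest coding transcript start belonged to another gene, and 6 of the 11 bound genes were not the gene nearest to any of their peaks. With each summit given only to its nearest coding gene, 5 srh genes remained (2.27%, with 22.0% over all coding genes), namely srh-70, srh-2, srh-237, srh-269 and srh-16. Every interval given here covers counting error only, and neighbouring genes are not independent.

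**Figure D1:**
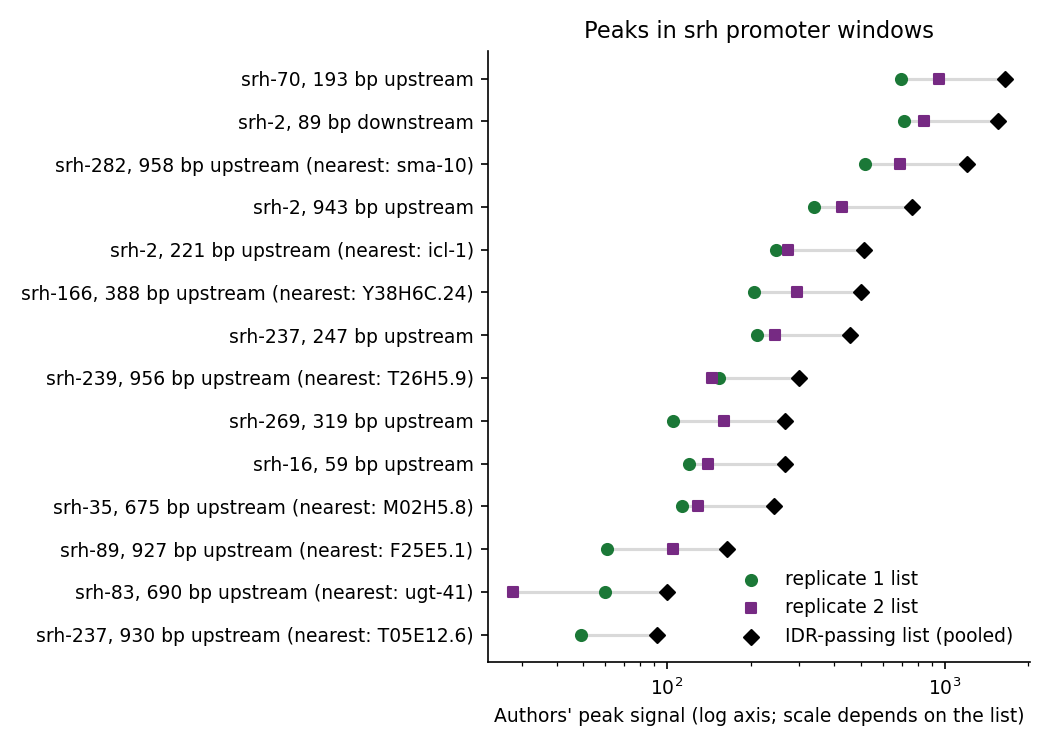
Authors' signal of the 14 peaks in srh promoter windows (log axis), in the lists of replicate 1 (circles) and replicate 2 (squares) and in the IDR-passing list of the pooled replicates (diamonds). Rows give the distance from the srh start and, where it is another gene, the gene with the nearest start. The signals of the IDR-passing list run from 91.8 to 1651, and the lowest row has no replicate 2 peak within 100 bp.

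The strongest srh peak stood at srh-70 (WBGene00005291), on the minus strand of chromosome II. It spanned II 12518819 to 12519370 in intergenic sequence, with its summit at 12519052, 193 bp upstream of the srh-70 start. The signal was 1651, rank 83 of 9198, and the replicates' own lists gave 694 (rank 103) and 956 (rank 66). The replicates thus placed it at similar ranks. On the other side of the summit lay the start of ceh-99, a homeobox gene, 929 bp away and transcribed in the opposite direction. Small RNA genes lay closer than ceh-99: the snoRNA gene T21B4.20 began 34 bp from the summit and the microRNA gene cel-mir-77 began 216 bp from it. A weaker IDR-passing summit with a signal of 93.9 lay in the 5′ UTR of srh-70, 695 bp downstream of its start and outside the window. The 201 bases around the main summit are shown because this is the srh promoter with the highest signal. They hold 1 TGATAA, in capitals, printed as its reverse complement on the strand of the gene, and 67 of the bases belong to the snoRNA gene.
srh-70, chrII:12518952-12519152, minus strand: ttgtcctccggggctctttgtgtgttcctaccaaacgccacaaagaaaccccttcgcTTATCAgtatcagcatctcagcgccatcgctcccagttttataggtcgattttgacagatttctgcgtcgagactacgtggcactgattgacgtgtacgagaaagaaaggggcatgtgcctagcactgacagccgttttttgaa

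srh-2 (WBGene00005228), on the plus strand of chromosome V, had the most peaks of any member. Its annotation has 7 transcript starts, from V 728301 to 732038, and its windows held 3 peaks. The strongest had its summit at 731498, in the 5′ UTR of srh-2 and 89 bp downstream of a start, with a signal of 1559 (rank 98) and replicate signals of 711 and 840. The next had its summit at 730460 in an intron, 943 bp upstream of the start at 731403, with a signal of 764 and replicate signals of 337 and 428. The third had its summit at 728080, between the outermost srh-2 start, 221 bp away, and the divergent start of icl-1, 76 bp away, with a signal of 512 and replicate signals of 247 and 272. ICL-1 is the bifunctional enzyme of the glyoxylate cycle, which turns fat into carbohydrate. A further pair of summits lay in an srh-2 intron outside the windows, 1050 and 1253 bp downstream of a start, with signals of 413 and 153. The peaks at the inner starts had only srh-2 in reach of the window rule, while the outermost was shared with icl-1. The intronic stretch around 730460 is shown, since it is the one of the 3 srh-2 window summits with TGATAA within 100 bp.
srh-2, chrV:730360-730560, plus strand: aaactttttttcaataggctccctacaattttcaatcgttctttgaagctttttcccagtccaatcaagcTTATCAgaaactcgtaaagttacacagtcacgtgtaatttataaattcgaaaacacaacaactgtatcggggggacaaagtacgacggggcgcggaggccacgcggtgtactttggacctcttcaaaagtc

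srh-237 (WBGene00005444, plus strand of chromosome V) had a peak with its summit at 17090132, 247 bp upstream of its start and 690 bp from the divergent start of T05E12.6. Its signal was 455 (rank 1854), with 210 in replicate 1 and 245 in replicate 2. A second, weak summit in the same window, at 17089449, lay 930 bp upstream of srh-237 but 7 bp upstream of T05E12.6. It had a signal of 91.8 (rank 8148), a replicate 1 signal of 48.8 and no replicate 2 peak within 100 bp, which made it the weakest srh peak and the only one of the 14 that was matched in 1 replicate. The sequence around the stronger summit is shown because srh-237 was the nearest gene and the hexamer lay close to the summit.
srh-237, chrV:17090032-17090232, plus strand: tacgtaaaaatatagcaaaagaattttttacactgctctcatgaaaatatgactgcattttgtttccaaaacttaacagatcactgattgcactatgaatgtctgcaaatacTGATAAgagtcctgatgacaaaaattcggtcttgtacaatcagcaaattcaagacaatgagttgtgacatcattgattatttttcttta

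The peak counted to srh-269 (WBGene00005475, minus strand of chromosome V) had a narrow width of 177 bp and its summit at 16592361, 319 bp upstream of the start. Its signal was 267 (rank 3530), with 105 and 160 in the replicates. The next coding start on the other side, that of the cathepsin L-like protease gene cpl-1, was 1550 bp away. A tRNA gene (WBGene00014499) on the minus strand, at V 16592237 to 16592308, began 53 bp from the summit. The noncoding RNA gene T03E6.13 on the plus strand, at V 16592217 to 16592319, ended 42 bp from it. The 201 bases hold neither TGATAA nor the looser site WGATAR, in which W is A or T and R is A or G, and 59 of them belong to annotated RNA genes. They are shown as the contrast to the stretches above.
srh-269, chrV:16592261-16592461, minus strand: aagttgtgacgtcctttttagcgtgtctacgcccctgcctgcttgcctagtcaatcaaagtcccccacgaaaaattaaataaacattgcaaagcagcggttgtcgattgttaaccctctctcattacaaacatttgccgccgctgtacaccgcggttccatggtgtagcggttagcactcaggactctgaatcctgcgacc

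srh-16 (WBGene00005241) was the last of the 5 genes that were nearest to a summit. The summit at V 12291802 lay 59 bp upstream of srh-16. The signal was 265 (rank 3561), with 120 and 141 in the replicates. This summit had no TGATAA and no WGATAR within 100 bp.

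The other 6 bound genes shared a promoter peak with a neighbour whose start was closer. The strongest of these peaks was counted to srh-282 (WBGene00005487), at IV 274357, 958 bp upstream of srh-282 but 63 bp upstream of sma-10, a gene of the BMP signalling pathway. Its signal was 1207 (rank 224), with 517 and 689 in the replicates. At srh-166 the summit (V 20526254, signal 501) lay 388 bp upstream of the srh gene and 181 bp from the divergent start of Y38H6C.24, with replicate signals of 205 and 293. At srh-239 it lay 956 bp upstream of the srh gene and 135 bp upstream of T26H5.9 (signal 298, replicates 154 and 145). At srh-35 it lay 675 bp upstream and 76 bp from M02H5.8 (signal 242, replicates 113 and 129). At srh-89 it lay 927 bp upstream and 161 bp from F25E5.1 (signal 164, replicates 60.9 and 105). At srh-83 it lay 690 bp upstream and 225 bp from ugt-41, a UDP-glucuronosyltransferase gene of detoxification (signal 99.8, replicates 59.6 and 27.8). The signals of these 6 peaks ran from 99.8 to 1207, within the range of 91.8 to 1651 over all 14 srh peaks.

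Across the 14 peaks, 13 had a peak within 100 bp in both replicates. Replicate 2 gave the higher signal in 11 of these 13 and the lower one at srh-239 and srh-83. The replicates' lists are scaled separately, so this order says nothing about the amount of binding. The srh-83 peak was the one whose standing differed most: rank 6155 in replicate 1 and 12065 in replicate 2. Of the 14 signals, 3 were above 1000 and 7 below 300, and the median was 376.

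**Figure D2:**
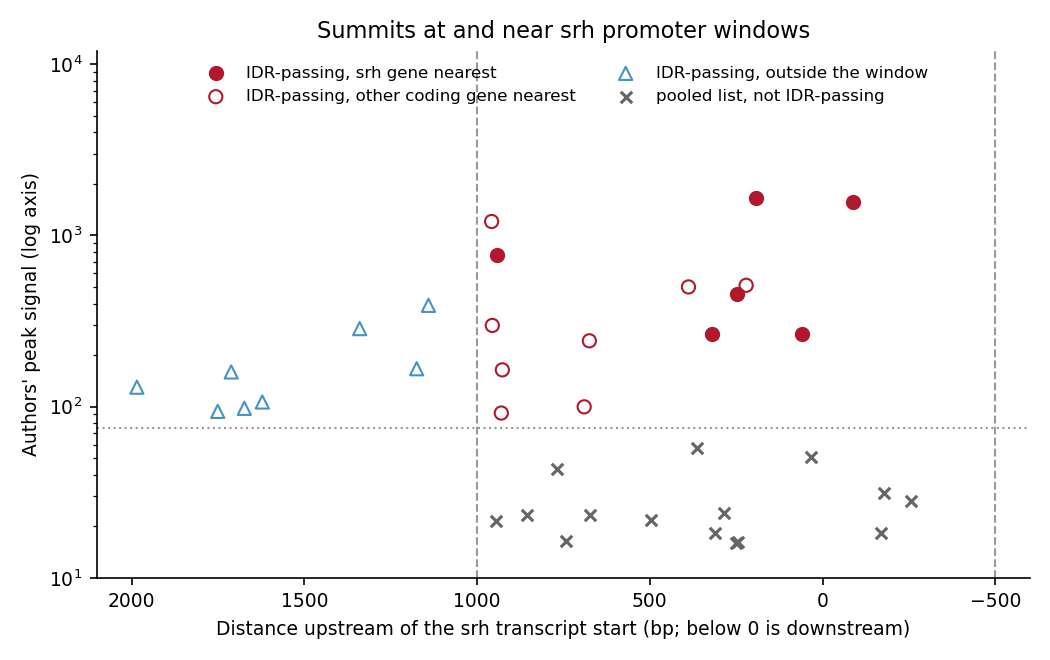
Distance of summits from the srh transcript start (x, bp, upstream to the left) against the authors' signal (y, log axis). Filled circles are IDR-passing summits in the window with the srh gene nearest, open circles those with another coding gene nearest, triangles IDR-passing summits upstream of the window and crosses summits of the pooled list below the lowest IDR-passing signal of 74.97 (dotted line); dashed lines mark the window. No cross lies above a signal of 57.2.

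At the edges of the calling rule, the weakest bound genes by their strongest peak were srh-83 (99.8) and srh-89 (164). Just below the IDR list, the strongest pooled summit in the window of an unbound srh gene was that of srh-283, with a signal of 57.2 at rank 10747, 362 bp upstream and nearest to C47A10.16. It was followed by srh-49 (50.7, 33 bp upstream) and srh-76 (43.0, 769 bp upstream). In total, 13 unbound genes had 15 summits of the pooled list in their windows, at signals of 15.9 to 57.2, and 4 of the 15 had a match in both replicates. The others with pooled summits were srh-61 (28.2), srh-170 (23.9), srh-48 (23.3), srh-72 (21.7), srh-52 (21.5), srh-71 (18.3), srh-172 (18.2), srh-46, srh-24 and srh-308. Since that list includes background, these are not called bound. Counting them, 24 of 220 srh genes (10.9%) had a summit of any rank, against 44.6% of all coding genes, and 196 had none.

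By distance, srh-282 (958 bp) and srh-239 (956 bp) stood just inside the upstream limit. Just outside it, 7 unbound genes had 8 IDR-passing summits between 1000 and 2000 bp upstream, and srh-177 was the nearest gene for 1 of them. The closest was 1141 bp upstream of srh-308, with a signal of 391 and 2 TGATAA within 100 bp, and it lay 44 bp upstream of mtl-2, a metallothionein gene known from the intestine. A second summit near srh-308, 1340 bp upstream with a signal of 286, was nearest to T08G5.1. At srh-24 a summit with a signal of 167 lay 1175 bp upstream, nearest to algn-13, a gene of protein glycosylation. At srh-136, srh-177, srh-48, srh-61 and srh-42 the distances ran from 1622 to 1985 bp and the signals from 93.9 to 159. On the downstream side, 3 unbound genes had a summit between 500 and 2000 bp from a start, each closer to the start of another gene. It lay 1480 bp downstream at srh-25 (signal 199), 48 bp upstream of C54D10.13, 1651 bp downstream at srh-40 (signal 520), 55 bp upstream of ctsa-4.2, and 1866 bp downstream at srh-74 (signal 358), 79 bp upstream of dhs-18.

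All 11 bound members had a gene outside the chemoreceptor families next upstream. For 109 srh genes it was another chemoreceptor gene, and 0 of these were bound (exact interval 0% to 3.33%). For the other 111 it was a gene of another kind, and 11 of these were bound, which leaves 100 unbound (9.91%, interval 5.05% to 17.0%). A pair was called divergent when the next upstream gene lay on the opposite strand, at any distance and with overlaps included. Such pairs held 9 of the 11. Of the 52 srh genes with a divergent upstream neighbour outside the chemoreceptor families, 9 were bound (17.3%, interval 8.23% to 30.3%). With each summit given only to its nearest coding gene, 4 of these 52 (7.69%) and 5 of the 111 (4.50%) remained. The window can take in the neighbour's promoter, and no matching share was counted over all coding genes with such neighbours. Of the 134 in tandem with the upstream gene, srh-239 and srh-269 were bound. These groupings were made after the calls were known, describe the same 11 genes and were not tested.

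**Figure D3:**
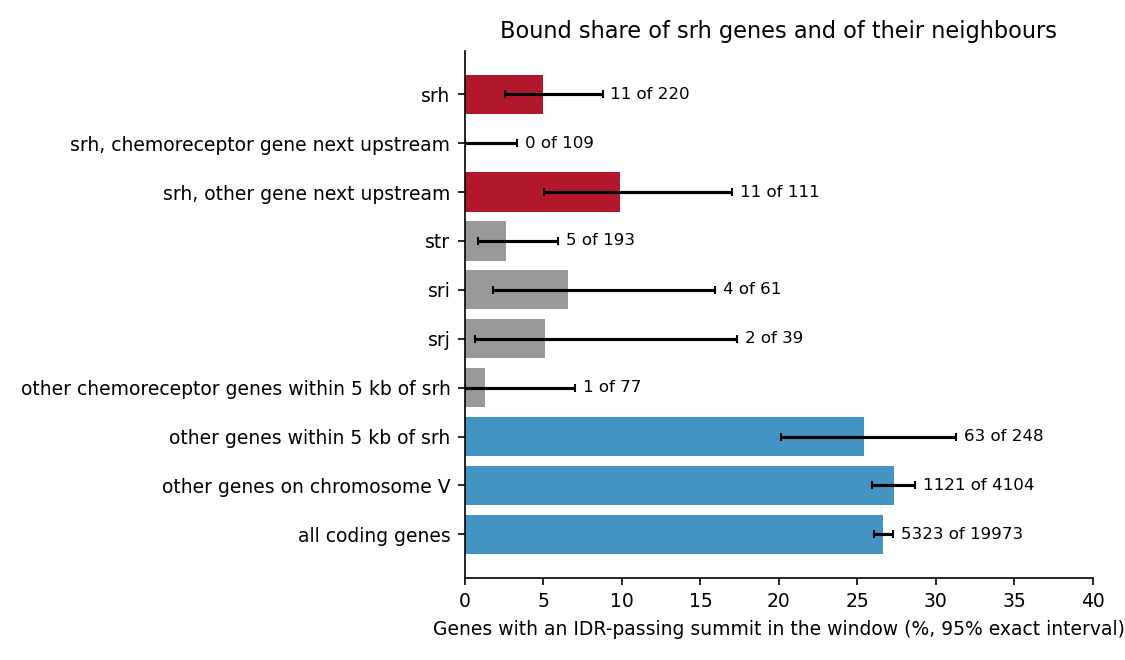
Share of genes with an IDR-passing summit in the promoter window (%), with 95% exact intervals and counts, for srh genes (red), related and neighbouring chemoreceptor genes (grey) and other coding genes (blue). The 248 genes of other kinds within 5 kb of an srh start stand at 25.4%, and the chemoreceptor groups all stand below 10%.

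Neighbouring genes outside the chemoreceptor families were also counted. Within 5 kb of an srh start lay the start of 248 coding genes outside the chemoreceptor families, and 63 of them were bound (25.4%, interval 20.1% to 31.3%), against 27.3% of such genes on chromosome V and 26.7% of all coding genes. By the pooled list they stood lower, at 35.1% against 43.4% of such genes on chromosome V, and their median distance to an IDR-passing summit was 6058 bp, against 4178 bp over all coding genes. Of 77 chemoreceptor genes of other families in the same distance, 1 was bound (1.30%). The related families of the same superfamily were bound at 2.59% (str, 5 of 193), 6.56% (sri, 4 of 61) and 5.13% (srj, 2 of 39), and their intervals overlap that of srh. Among the srh genes by chromosome, 9 of 180 were bound on V, 1 of 27 on II, 1 of 7 on IV and 0 of the 6 on I, III and X.

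Distance to binding was long for most members. The median distance from an srh start to the nearest IDR-passing summit was 10.3 kb, against 4.18 kb over all coding genes. It exceeded 10 kb for 112 srh genes (50.9%, against 27.5% of all coding genes and 37.5% of all unbound ones) and reached 60.2 kb at srh-3. The related families had similar values, with 47.2% (str), 49.2% (sri) and 46.2% (srj) of genes beyond 10 kb. Among srh genes with reporters in head sensory neurons, srh-142, srh-220 and srh-234 were looked up, and all 3 were unbound, as were 209 of the 220 srh genes. For srh-142, known from ADF neurons, the nearest IDR-passing summit lay 26888 bp away, and for srh-234, whose expression in ADL neurons depends on feeding state, 29721 bp. For srh-220, also known from ADL neurons, the distance was 8264 bp, below the median of the family.

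Clusters were defined as 3 or more srh genes on 1 chromosome with at most 20 kb between neighbouring gene bodies. There were 26 clusters, 22 of them on chromosome V, with 116 srh genes in all. In 23 clusters, with 104 srh genes, no member was bound. The other 3 each had 1 bound gene: srh-70 in the cluster from srh-68 to srh-70, srh-35 in that from srh-33 to srh-35, and srh-89 in that from srh-92 to srh-125. Outside clusters 8 of 104 srh genes were bound (7.69%), and inside them 3 of 116 (2.59%), shares whose intervals overlap. The cluster spans summed to 547 kb and held 7 IDR-passing summits, or 1.28 per 100 kb, against 8.49 per 100 kb of chromosome V and 9.16 per 100 kb of the nuclear genome. Of the pooled list they held 32 summits, 5.85 per 100 kb, against 26.1 on chromosome V. In 21 cluster spans there was no IDR-passing summit, and in 16, with 61 srh genes, no summit of the pooled list either. A span ran from the first to the last srh gene body, so promoters at its edges could lie outside. The summits in the windows of srh-70 and srh-35 lay outside in this way, and the span from srh-33 to srh-35 is among the 21.

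**Figure D4:**
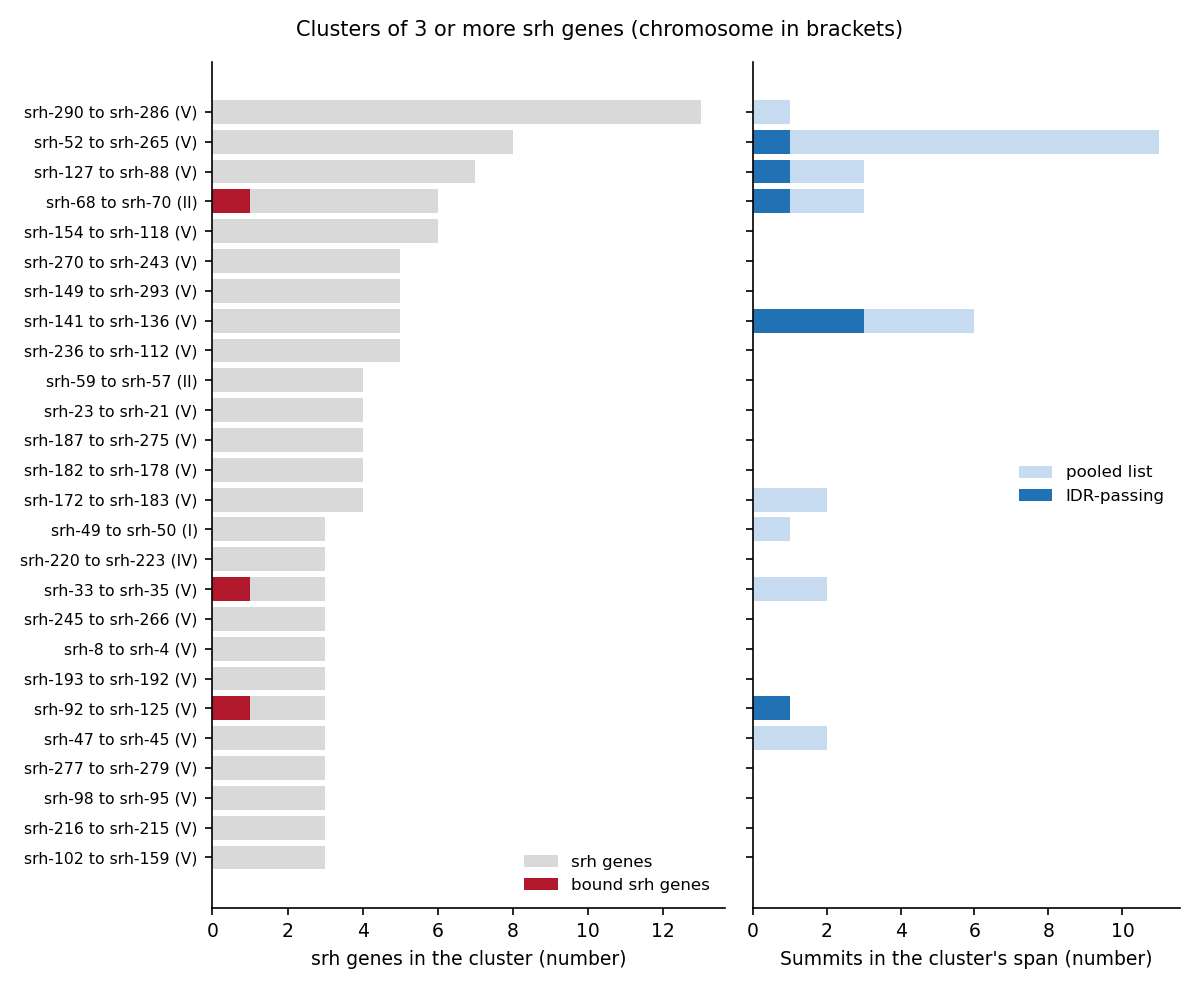
The 26 srh clusters, named by their first and last srh gene, with the number of srh genes and of bound ones (left) and the number of summits of the pooled and of the IDR-passing list in the span (right). Red marks the 3 clusters with a bound gene, and 16 spans are empty in both lists.

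The largest cluster ran from srh-290 to srh-286 (V 17790491 to 17844206) with 13 srh genes, no bound gene, 1 pooled summit and a stretch of 45.9 kb between neighbouring pooled summits. The next, from srh-52 to srh-265, had 8 srh genes and 10 other coding genes. Its single IDR-passing summit (signal 79.7) lay 301 bp upstream of T06E6.1, in the shared window of cyb-3, a B-type cyclin gene. The cluster from srh-127 to srh-88, with 7 srh genes in 71.6 kb, had 1 IDR-passing summit, 194 bp upstream of pals-32 (signal 210), and lay in the widest such stretch of these 5 clusters, 120 kb. The cluster from srh-68 to srh-70 had 6 srh genes and the weak summit in the srh-70 5′ UTR, and the summit of its strong peak lay just beyond its edge. The cluster from srh-154 to srh-118, also with 6, had no summit of either list within a stretch of 92.1 kb. Among the smaller clusters, that from srh-141 to srh-136 had 3 IDR-passing summits, the strongest 71 bp upstream of comt-2, a methyltransferase gene (signal 626), and none in an srh window. Of the 41 coding genes inside cluster spans that are no chemoreceptors, 8 were bound (19.5%, interval 8.82% to 34.9%), and of the 31 chemoreceptor genes of other families 0 were (interval up to 11.2%).

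Near-identical copies can hide binding, because reads that match several places may not be placed, and how such reads were treated is not given in the sources used here. Of the 31-base words in each promoter window, the median srh gene had 98.8% that occur once in the nuclear genome, against 100% over all coding genes. In 39 srh genes the share was below 90%, and none of these was bound. In 5, including both copies of srh-57 (0%) and of srh-228 (7.07%), it was below 50%, so the lists say little about binding there. Windows at 90% or more belonged to all 11 bound srh genes and to 81.3% of the unbound ones. Over all coding genes they belonged to 91.3% of the bound and 82.5% of the unbound. Among the 181 srh genes at 90% or more, 11 were bound (6.08%), against 28.7% of all coding genes at that level. Whether unplaced reads hid binding was not tested.

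TGATAA stood in most unbound srh windows. Of the 209 unbound srh genes, 169 (80.9%) had at least 1 TGATAA in the window, on either strand, against 81.6% of all coding genes, 78.9% of all unbound coding genes and 89.0% of all bound ones. The density was 1.15 sites per kb in unbound srh windows and 1.13 per kb over all coding genes. It was 1.03 per kb in the windows of all unbound coding genes and 1.38 per kb in those of all bound ones. The unbound members with the most sites were srh-167 and srh-48 (7 each, in windows of 2691 and 4134 bp from 2 and 3 starts) and srh-4 (6). The nearest IDR-passing summits lay 3842, 1712 and 14490 bp from their starts.

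At the summits themselves, 8 of the 14 srh peaks had TGATAA within 100 bp (57.1%, exact interval 28.9% to 82.3%), close to the 53.9% of all nuclear peaks. Of the 6 peaks with an srh gene nearest, 3 had it, and of the 8 with another gene nearest, 5 had it. The looser WGATAR was present at 10 of the 14 (71.4%), against 69.6% of all nuclear peaks. Neither the strongest srh-2 peak nor the one beside icl-1 had TGATAA, and each had 1 site of the looser form.

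The base after the hexamer was also read. At 5 of the 8 peaks with TGATAA, another coding gene was nearest. These were sma-10 at srh-282, Y38H6C.24 at srh-166, T26H5.9 at srh-239, M02H5.8 at srh-35, and T05E12.6 at the weaker srh-237 summit. The extended site is thus not a trait of srh promoters alone. The 8 peaks held 10 TGATAA sites, and 9 of the 10 read TGATAAG (90%, interval 55.5% to 99.7%). At all nuclear summits 41.6% of 7884 sites did, in the windows of unbound srh genes 12.2% of 369, in those of all unbound coding genes 16.6%, and in the nuclear genome 17.7% of 105444. TGATAAG stood in the windows of 9 of the 11 bound srh genes and of 41 of the 209 unbound ones (19.6%). Over all coding genes it stood in the windows of 46.5% of the bound and 24.4% of the unbound ones. The extended form was looked for after the sites had been seen, so these shares are a description without a test. The 10 sites are printed with 10 bases before and 9 after, read so that each shows TGATAA in capitals, because the following base is what the shares count.
srh-70, chrII:12519080-12519104, plus strand: atgctgatacTGATAAgcgaagggg
srh-2, intron, chrV:730421-730445, minus strand: tacgagtttcTGATAAgcttgattg
srh-282 and sma-10, chrIV:274263-274287, minus strand: agagtactgtTGATAAgaatttagt
srh-166, first site, chrV:20526205-20526229, minus strand: agttttgtctTGATAAgaaatgatt
srh-166, second site, chrV:20526250-20526274, minus strand: gccttatcggTGATAAggaaattgt
srh-237, chrV:17090134-17090158, plus strand: ctgcaaatacTGATAAgagtcctga
srh-237 and T05E12.6, chrV:17089476-17089500, plus strand: ggctgttaacTGATAAgaagtaatt
srh-239, first site, chrV:15444711-15444735, minus strand: tactttttctTGATAAcactttgaa
srh-239, second site, chrV:15444788-15444812, minus strand: agagcagaatTGATAAgagaactca
srh-35, chrV:449858-449882, minus strand: aacctcagtgTGATAAggaaaatgt

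For contrast, the upstream stretch of 201 bases with the most TGATAA in an unbound, single-start srh gene outside exons was that of srh-299 (WBGene00005503), in the cluster from srh-149 to srh-293. It holds 3 hexamers, none of them followed by G on its own strand, and it ends 70 bp before the start. All 31-base words of the window were unique, and the nearest summit of any list of the pooled replicates lay 10624 bp away.
srh-299, chrV:15863072-15863272, plus strand: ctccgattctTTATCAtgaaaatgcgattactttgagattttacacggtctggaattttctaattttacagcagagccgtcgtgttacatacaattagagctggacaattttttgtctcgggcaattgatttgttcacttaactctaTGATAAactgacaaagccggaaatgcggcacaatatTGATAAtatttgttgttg

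**Figure D5:**
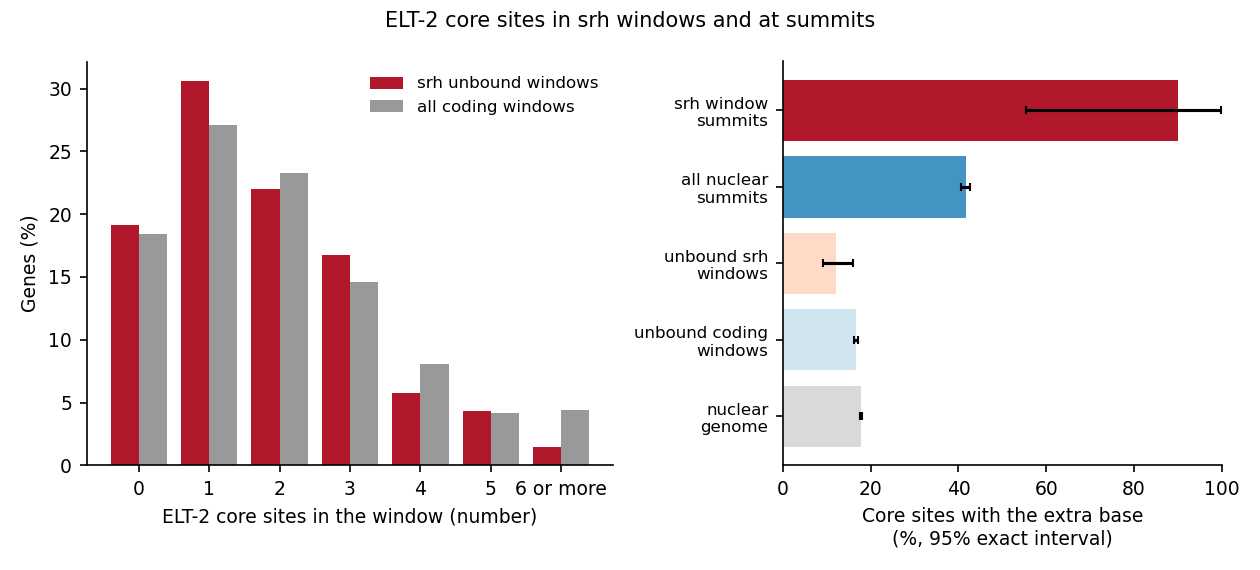
Left, share of genes (%) by the number of TGATAA sites in the promoter window, for unbound srh genes (red) and all coding genes (grey). Right, share of TGATAA sites that read TGATAAG (%, 95% exact interval) at srh summits, at all nuclear summits, in unbound srh windows, in unbound coding windows and in the nuclear genome; the srh summits stand at 90% of 10 sites.

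Genes that act with chemoreceptors in sensory neurons were a mixed group. Of 24 such genes, 7 were bound (29.2%, interval 12.6% to 51.1%), close to the share of all coding genes. None was a gene of receptor transport (odr-4, odr-8), a guanylate cyclase (odr-1, daf-11) or a sensory channel (tax-2, tax-4, osm-9, ocr-2). Unbound as well were grk-2, arr-1 and rgs-3, the cilia gene osm-3, and hda-4, which was listed with kin-29 and mef-2. Each class held few genes, and differences between classes were not tested. Of the 5 G protein alpha subunit genes, gpa-1 was bound (signal 401, 196 bp upstream). The others were egl-4, a cGMP-dependent protein kinase gene (524), the kinase gene kin-29 (511), the transcription factor genes mef-2 (390), crh-1 (1052) and hlh-30 (538), and daf-19, the regulator of cilia genes (191). In worms, KIN-29 and MEF-2 set chemoreceptor expression, and HLH-30 is also a regulator of autophagy and fat use in the intestine. The strongest summits of mef-2 and crh-1 had TGATAA within 100 bp, those of the other 5 did not, and each of the 7 genes was the nearest coding gene to its strongest summit.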

How the data were processed

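ChIP-seq of ELT-2 was deposited as peak lists for replicates 1 and 2, for the pooled replicates and for the IDR-passing peaks. Per the deposited text files, the authors called peaks with a control library among the inputs, and the deposited signal is read from the column layout, since the lists have no header. No source used here names the peak caller, the aligner, a version or the IDR cutoff. The ce11 lists were used, and the ce10 lists were not analysed here. Summits were placed at the peak start plus the deposited offset. The printed sequences come from the RefSeq copy of WBcel235, the assembly of ce11, the gene models from Ensembl release 115, and the mitochondrial chromosome was left out. Chemoreceptor genes were recognised by symbol prefix. TGATAA was sought on both strands within 100 bp of summits and in windows, where overlapping windows of 1 gene were merged. A window's uniqueness was the share of its 31-base words found once in the nuclear genome.

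No conditions exist to compare, so counts stand beside those of all coding genes without tests, and shares have 95% exact (Clopper-Pearson) intervals. Replicate peaks were matched by summits within 100 bp. The labels name separate biological replicates and give no more on their origin. The members and lists were chosen with earlier results of these data known. Named genes were all bound members, their neighbours, the 10 unbound members with the strongest pooled summits, the 5 with the closest IDR-passing summits outside the window on either side, the 3 with the most sites, the ends of the 5 largest clusters, the 3 reporter genes and bound genes of the sensory list; the others were chosen after their values were seen, as were the uniqueness check, the extended site and the grouping by upstream neighbour. The software was matplotlib 3.10.9 and scipy 1.17.1 with pandas 2.3.3 and numpy 2.4.6 under Python 3.11.15, and the calls were checked on simulated summits.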

Additional observations from a re-analysis of the deposited data

How the results depend on the processing

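The counts of bound srh genes and of their peaks depend on the window and on the peak set. With 500 bp upstream to 200 bp downstream, 6 genes and 7 peaks remained of 11 and 14, with 2000 bp upstream to 500 bp downstream there were 18 genes and 28 peaks, with the nearest coding gene only 5 genes and 6 peaks, and with all peaks of the pooled list, which includes background, 24 genes and 32 peaks. Over all coding genes these settings gave 21.3%, 32.1%, 22.0% and 44.6% bound, above the srh share in each. For the settings without 1 replicate, the 9198 strongest peaks of the other replicate's own list replaced the IDR-passing list, and no IDR filter was run again. They gave 10 to 11 genes and 12 to 16 peaks, and srh-83 was the gene lost, without replicate 1. Of all coding genes, 26.5% were bound without replicate 1 and 25.7% without replicate 2. Peaks at or above the median signal gave 9 genes (4.09%), without srh-83 and srh-89, against 14.4% of all coding genes. Any overlap of peak and window gave 12 (5.45%), with srh-24, against 28.4%. The share of peaks with TGATAA ran from 42.9% to 71.4% over 10 alternatives, and WGATAR in its place gave 71.4%, all inside the interval of the main value. The clusters without a bound member ran from 19 to 25 over 10. Gaps up to 10 kb gave 21 of 23 clusters and gaps up to 50 kb gave 19 of 24, while the other settings counted out of 26. No paired analysis was possible because there is 1 group. The unknown depth limits what the absence of weak peaks shows.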

Other observations

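IDR-passing summits inside srh gene bodies were also counted, without a matching count over all coding genes. There were 6, in 3 genes: 4 lay in srh-2, 1 in srh-70, and 1 in an exon of srh-40 on chromosome III. The srh-40 summit had a signal of 520 (rank 1508) and lay 55 bp upstream of the start of ctsa-4.2, outside the promoter window of srh-40, so srh-40 does not count among the bound genes.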
